A study of Homo sapiens with 6 samples.

Results

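The response of A549 cells to AL-X was described from 2 of the 6 libraries of the study, A549 with AL-X and A549 with the solvent DMSO. Of 60671 gene rows, 11959 reached at least 5 CPM (counts divided by library size and brought to a common scale) in the higher of the 2 libraries when libraries were scaled by TMM, a method that sets the bulk of genes level between libraries. With library totals as the only scaling, 11830 genes reached that level. AL-X, which the labels also call 9α,11αOH-KA, was given at 10 µg/mL for 48 h, and the controls received DMSO for 48 h. The labels give the genotype of the cells as wild type and name no change made to them. HCC827 and H1975, 2 further lung cancer lines treated in the same way, entered the TMM scaling and the comparisons with A549 given last. Each group was 1 library, so within A549 no test was possible, and "higher" and "lower" compare 2 libraries.

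A549 is a lung adenocarcinoma line with mutant STK11 and KEAP1, normal EGFR and a deleted CDKN2A locus. Loss of KEAP1 function leaves the oxidant-response factor NRF2 active in untreated cells. Immediate-early genes such as FOS and EGR1 are silent or low in resting cells and are switched on within minutes by growth factors or stress, without new protein synthesis. Heat shock genes are induced by the factor HSF1 when proteins misfold, and the integrated stress response acts through the factor ATF4 when initiation of translation is curbed. Mitochondria carry a small circular genome with its own RNA polymerase, which specifies subunits of the respiratory chain, ribosomal RNAs and transfer RNAs.

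The A549 libraries held 110445983 counts with DMSO and 121552821 with AL-X, and 26979 and 24046 genes with at least 1 count. Effective sizes after TMM were 1.118 and 0.5567 times these totals. CDKN2A, deleted in this line, had 0 counts in both, and the 6 epithelial markers together had 648400 counts with DMSO and 441855 with AL-X. Their summed CPM went from 5252.35 to 6529.31 under TMM and from 5870.74 to 3635.09 with library totals, so the direction of the sum turned with the scaling. Single markers need not follow the sum, and 4 of the 6 reached 5 CPM. CDH1 was lower under both (log2 folds -3.72 under TMM and -4.73 with totals) and KRT7 higher under both (1.46 and 0.46). EPCAM was low, at 325 and 99 counts. Of 17 lung lineage and surfactant genes, 3 reached 5 CPM, namely ABCA3, FOXA1 and FOXA2. ABCA3, which loads surfactant lipids, had 9960 and 3100 counts (log2 folds -0.82 under TMM and -1.82 with totals). FOXA1 was at -0.97 and -1.97, while FOXA2 went the other way, at 1.27 and 0.27. The surfactant genes SFTPA1, SFTPA2 and SFTPB were at 0 in both libraries. The 12 markers of immune, blood, stromal and endothelial cells summed to 12.77 CPM with DMSO and 7.88 with AL-X under TMM. With library totals the sums were 14.27 and 4.38. At 5 CPM there were 2 of them, CD14 (log2 folds -0.12 under TMM and -1.12 with totals) and COL1A1 (-2.41 and -3.4). Of the rest, PTPRC, CD3E, DCN and VWF were at 0 in both libraries.

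The A549 response was wide. Under TMM scaling, 3597 genes (30.1% of 11959) were at least 2-fold higher with AL-X and 3779 (31.6%) at least 2-fold lower, and the median log2 fold was -0.01. With library totals, 1505 genes (12.7% of 11830) were at least 2-fold higher and 6151 (52.0%) lower, and the median was -1.10. Of the genes past 2-fold, 48.8% were higher under TMM and 19.7% with totals. Over the TMM gene set, totals moved the median log2 fold by -1.0. The data do not say which scaling stands for RNA per cell, and fewer cells and less RNA per cell cannot be told apart in bulk RNA. Folds below are therefore given as a pair of log2 values, TMM first and library totals second, unless 1 scaling is named. Tallies of gene lists below are to be set against the shares of all genes given here. Among the 11677 genes at 5 CPM under both, 1505 were at least 2-fold higher and 3779 at least 2-fold lower whichever scaling was used.

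**Figure D1:**
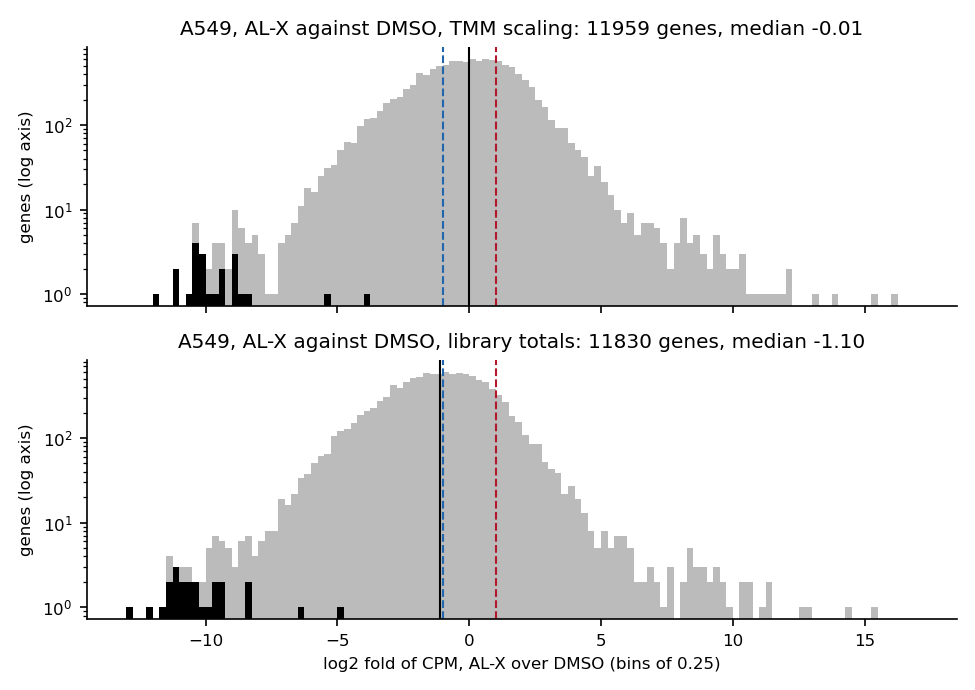
Histograms of log2 folds of CPM, AL-X over DMSO, in A549 under TMM scaling (upper) and library totals (lower), with the number of genes on a log axis. Grey bars are all genes at 5 CPM or more, black bars genes of the mitochondrial genome, dashed lines 2-fold and the solid line the median, which lies at -0.01 and at -1.10.

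Counting error was small beside these differences. The exact binomial 95% interval of the count ratio, which covers counting error only, lay wholly beyond 2-fold for 3454 of the genes counted as higher and 3528 of those counted as lower under TMM. At least 16-fold higher were 297 genes under TMM and 122 with totals, and at least 16-fold lower were 479 and 1085. Some genes went from almost nothing to a clear level. With at most 10 counts with DMSO and at least 5 TMM-scaled CPM with AL-X there were 47 genes, 27 of them at 0 counts with DMSO. The reverse was seen for 74 genes, 32 of them at 0 with AL-X.

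The highest folds of all nuclear protein-coding genes were those of immediate-early and activity-regulated genes. FOSB, a partner of JUN in the AP-1 transcription factor, had 6 counts with DMSO and 365191 with AL-X, or 0.0486 and 5396 TMM-scaled CPM (log2 folds 16.24 and 15.36, TMM interval 15.64 to 18.21). ARC, a postsynaptic protein whose messenger RNA is a marker of neuronal activity, had 7 and 220376 counts (15.36 and 14.46). EGR1, a zinc finger factor of the growth response, had 48 and 441774 counts (13.96 and 12.97, interval 13.63 to 14.47). RASD1, a RAS-related GTPase known for induction by dexamethasone, had 20 and 52042 counts (12.04 and 11.08). These 4 genes were thus at the edge of detection with DMSO and among the well-detected genes with AL-X.

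Of the genes with the highest folds given above, FOSB, EGR1 and RASD1 have their upstream sequences shown, and ARC does not. These sequences are the 250 bases before each start. They are from RefSeq on GRCh38.p14, at chr19:45467746-45467995 on the plus strand for FOSB, chr5:138465229-138465478 on the plus strand for EGR1 and chr17:17496396-17496645 on the minus strand for RASD1. Capitals mark, on either strand, the cAMP response element half-site TGACG, the TATA box TATAAA and the CArG box bound by serum response factor.
FOSB: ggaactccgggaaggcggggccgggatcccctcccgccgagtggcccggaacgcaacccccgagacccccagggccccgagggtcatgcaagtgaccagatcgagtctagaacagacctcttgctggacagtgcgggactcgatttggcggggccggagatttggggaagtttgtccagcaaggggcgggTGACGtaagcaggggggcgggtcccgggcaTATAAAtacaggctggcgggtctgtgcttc
EGR1: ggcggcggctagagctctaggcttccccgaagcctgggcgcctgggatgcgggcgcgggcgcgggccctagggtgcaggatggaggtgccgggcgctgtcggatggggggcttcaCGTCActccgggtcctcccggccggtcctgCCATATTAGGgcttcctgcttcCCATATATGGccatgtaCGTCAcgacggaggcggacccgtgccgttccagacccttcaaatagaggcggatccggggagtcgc
RASD1: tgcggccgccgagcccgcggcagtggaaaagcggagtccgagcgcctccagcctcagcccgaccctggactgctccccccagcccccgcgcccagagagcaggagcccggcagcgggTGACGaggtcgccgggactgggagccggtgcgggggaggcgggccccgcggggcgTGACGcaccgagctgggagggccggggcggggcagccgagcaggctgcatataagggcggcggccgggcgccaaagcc

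FOSB held 1 half-site at -60 to -56 and a TATA box at -30 to -25, counted from the start. EGR1 held half-sites at -135 to -131 and -66 to -62 and CArG boxes at -105 to -96 and -83 to -74. RASD1 held half-sites at -133 to -129 and -78 to -74. The half-site is common, so its presence says little by itself: of the 8996 nuclear protein-coding genes considered that had a promoter entry, 31.0% held it, and the share was 38.4% in the 159 genes at least 16-fold higher and 23.3% in the 296 at least 16-fold lower under TMM. With totals it was 31.9% in the 69 genes at least 16-fold higher, close to the share of all considered.

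The TATA box differed in share between response classes. It was found in 20.1% of the promoters of genes at least 16-fold higher, in 6.5% of those 2- to 16-fold higher, in 3.8% of those under 2-fold, in 4.3% of those 2- to 16-fold lower and in 4.4% of those at least 16-fold lower, against 5.0% of all considered and 11.1% of all 27305 promoters in the table. With library totals the share in the 69 genes at least 16-fold higher was 29%. The paired heat shock motif GAANNTTC was in 10.1% of promoters of genes at least 16-fold higher under TMM, 14.5% with totals and 4.0% of all considered. The whole cAMP response element TGACGTCA, which contains the half-site, was in 6.3%, 4.3% and 3.1%, and the CArG box in 1.9%, 2.9% and 0.9%. AP-1 sites (TGACTCA or its complement) were in 1.9%, 4.3% and 2.2%, so they were below the share of all considered under TMM and above it with totals. These shares are descriptions of letters in a window and were not tested.

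**Figure D2:**
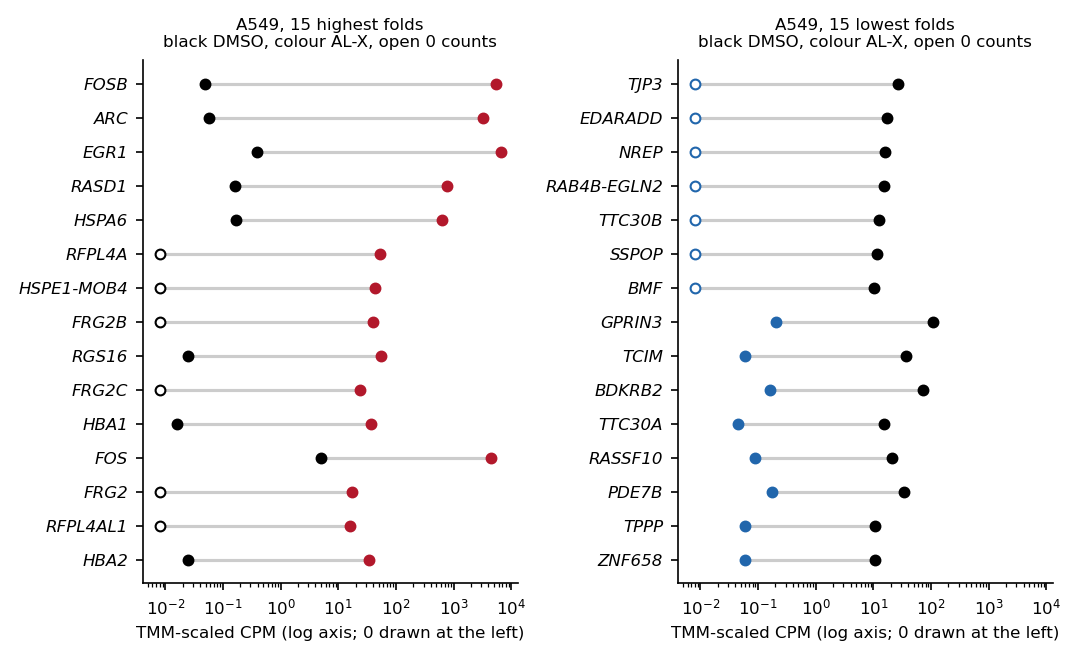
TMM-scaled CPM (log axis) with DMSO (black) and AL-X (colour) for the 15 nuclear protein-coding genes with the highest and the 15 with the lowest log2 fold in A549. Open symbols are 0 counts, drawn at the left edge, and FOSB, ARC and EGR1 span the widest ranges.

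The wider set of immediate-early transcription factors was higher too. At 5 CPM there were 23 members, 22 of them at least 2-fold higher and 1 lower under TMM (median log2 fold 4.34), and with totals 18 of 24 were higher and 2 lower (3.22). FOS itself had 616 counts with DMSO and 296981 with AL-X (9.77 and 8.77). EGR2 had 7 and 3568 (9.41 and 8.51), and ATF3, a stress-induced partner of AP-1, had 142 and 12280 (7.28 and 6.28). JUN, the other arm of AP-1, had 3049 and 65076 (5.28 and 4.28), and MYC, the growth factor-responsive regulator of ribosome production, had 11494 and 21167 (1.75 and 0.74). FOSL2 was the least high of the higher members (1.15 and 0.14), and KLF6 was the exception, at 4592 and 1018 counts (-1.30 and -2.31).

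Of 9 EGF ligands, ERBB receptors and their feedback inhibitor at 5 CPM, 4 were higher and 3 lower (-0.55), and 4 and 5 with totals (-1.55). For this list and the MAP kinase phosphatases below, shares over all genes were 30.1% higher and 31.6% lower under TMM. With totals they were 12.7% and 52.0%. The part of the EGF list that was lower was near these shares. HBEGF, a ligand of EGFR, had 232 counts with DMSO and 83854 with AL-X (9.35 and 8.35), ERRFI1, a feedback inhibitor of EGFR, had 10100 and 66523 (3.59 and 2.58), and the ligand AREG had 1939 and 9642 (3.18 and 2.17). The 3 lower under TMM were the receptors. EGFR had 38826 and 2593 counts (-3.04 and -4.04), ERBB2 10625 and 1199 (-2.28 and -3.28) and ERBB3 1114 and 31 (-4.24 and -5.21). Among 13 MAP kinase phosphatases and feedback genes, AL-X gave 8 at least 2-fold higher and 2 lower under TMM (median 1.79) and 5 of 12 higher and 3 lower with totals (0.55). DUSP5, a nuclear ERK phosphatase, had 4224 and 71944 counts (4.96 and 3.95), DUSP1 had 4092 and 35088 (3.97 and 2.96), and DUSP6, a cytoplasmic ERK phosphatase, had 1293 and 154 (-2.19 and -3.19).

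Several of the highest genes are silent in most adult tissues. RFPL4A, a member of a gene group active in the early embryo, had 0 counts with DMSO and 3573 with AL-X, at least 2173-fold higher under TMM and 1082-fold with totals against a floor of 3 counts per library. FRG2B had 0 and 2754 counts (at least 1675-fold and 834-fold higher), FRG2C 0 and 1640 (at least 997-fold and 497-fold) and FRG2 0 and 1177 (at least 716-fold and 356-fold). RFPL4AL1 had 0 and 1070 counts (at least 651-fold and 324-fold higher). These are near-identical copies, so how their reads were shared among them is not known. Of the 21 early-embryo genes in the list to which RFPL4A, FRG2B and FRG2 belong, only these 3 reached 5 CPM, and the list summed to 74 counts with DMSO and 7606 with AL-X.

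The alpha-globin genes HBA1 and HBA2, another near-identical pair, had 2 and 3 counts with DMSO and 2473 and 2262 with AL-X. Their log2 folds were 9.94 for HBA1 (interval 9.29 to 14.19, totals 9.17) and 9.53 for HBA2 (8.88 to 12.70, totals 8.71), while HBB, the adult beta-globin that defines red cells, had 0 counts with DMSO and 3 with AL-X. RGS16, a regulator of G protein signalling, had 3 and 3792 counts (10.28, interval 9.62 to 13.45, totals 9.46). HSPE1-MOB4, a readthrough of a mitochondrial chaperonin gene into its neighbour, had 0 and 2919 counts, at least 1775-fold higher under TMM and 884-fold with totals.

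Among non-coding nuclear genes, HSPA7, a pseudogene next to HSPA6 and close to it in sequence, had 3 and 4469 counts (10.51, interval 9.86 to 13.69, totals 9.69). FRG2EP had 0 and 798 counts, at least 485-fold higher under TMM and 242-fold with totals. The small nucleolar RNA genes SNORD14E, with 6 and 1698 counts (8.50 and 7.61), and SNORA57, with 3 and 710 (7.86 and 7.04), lie in introns of other genes. SNORD14E lies within HSPA8, so its counts cannot be told apart from unspliced HSPA8 RNA. HNRNPD-DT, a transcript divergent from HNRNPD, had 6 and 869 counts (7.53 and 6.65).

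Cytosolic heat shock genes took 0.728% of all counts with DMSO and 6.01% with AL-X. At 5 CPM there were 22 members, 19 of them at least 2-fold higher and 0 lower under TMM (median 3.20), and with totals 18 were higher and 1 lower (2.19), against 30.1% and 12.7% of all genes higher. HSPA6, an HSP70 gene that is off without stress, had 21 and 42337 counts (11.68 and 10.71, interval 11.23 to 12.54). The inducible HSP70 genes HSPA1A and HSPA1B, near-identical copies, had 29158 and 25497 counts with DMSO and 1375954 and 1262515 with AL-X, with folds of 6.43 and 5.42 for HSPA1A and 6.5 and 5.49 for HSPA1B. HSPA8, the constitutive HSP70, had 146849 and 1399975 counts (4.12 and 3.11) and held the most counts of any nuclear gene with AL-X, followed by HSPA1A, HSPA1B, FTL and ACTB. With DMSO the order had been EEF1A1, FTL, SCD, ALDH1A1 and GAPDH. A total of counts grows with transcript length, so these are shares of the reads and not of molecules.

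HSP90AA1, the inducible cytosolic HSP90, had 192407 and 603444 counts (2.52 and 1.51). The factor HSF1 itself was close to the 2-fold line under TMM, at 9360 and 11023 counts (1.10 and 0.10). At the low end of the heat shock list were HSPB8 (0.81 and -0.20), HSPA4 (0.70 and -0.30) and HSPA4L (-0.19 and -1.19), relatives of HSP110 in the case of the last pair.

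The disposal arm of protein quality control was higher as well under TMM and by less with totals. Of 36 proteasome subunits, 31 were at least 2-fold higher and 1 lower (median 1.82), and with totals 14 were higher and 1 lower (0.81). PSMC6, an ATPase of the base, had 7166 and 32818 counts (3.06 and 2.06), PSMD8 had 17407 and 71946 (2.91 and 1.91), and PSMD5, an assembly chaperone, had 9884 and 2192 (-1.31 and -2.31). PSMB8, the immunoproteasome subunit, was nearly level under TMM (0.06 and -0.94). All 4 ubiquitin genes were higher under TMM (median 2.59) and 3 of 4 with totals (1.58). Autophagy and lysosome genes were mixed, with 12 of 23 higher and 2 lower (1.20) and, with totals, 9 higher and 4 lower (0.19). The shares of all genes were 30.1% higher and 31.6% lower under TMM, and 12.7% and 52.0% with totals. MAP1LC3B, the autophagosome protein LC3, had 5671 and 86066 counts (4.79 and 3.79), GLA, lysosomal alpha-galactosidase, 9330 and 96526 (4.24 and 3.23), and the initiating kinase gene ULK1 18318 and 4221 (-1.25 and -2.26).

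Most of the integrated stress response list was higher. Under TMM 18 of 26 members were 2-fold or more higher and 3 lower (median 2.08), and with totals 14 were higher and 5 lower (1.08). PPP1R15A, the phosphatase subunit GADD34 that ends the block on translation, had 3646 counts with DMSO and 778054 with AL-X (8.60 and 7.6). DDIT3, which encodes CHOP, had 442 and 32369 (7.05 and 6.05), SESN2 had 907 and 10917 (4.45 and 3.45), and ATF4 had 21537 and 123137 (3.38 and 2.38). Among the 3 lower members were 2 amino acid transporters: SLC7A11, the cystine transporter, had 58263 and 5480 counts (-2.54 and -3.55), and SLC7A1, a transporter of arginine and lysine, had 11193 and 2542 (-1.27 and -2.28).

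Endoplasmic reticulum chaperones and unfolded protein genes were closer to level. Under TMM 9 of 22 were at least 2-fold higher and 1 lower (0.89), and with totals 3 were higher and 5 lower, with a median of the opposite sign (-0.12). Shares of all genes were 30.1% higher and 31.6% lower under TMM, and 12.7% and 52.0% with totals. HERPUD1 had 4575 and 30760 counts (3.62 and 2.61), DNAJB9 1700 and 10236 (3.46 and 2.45) and HSPA5, the chaperone BiP, 83420 and 441505 (3.27 and 2.27). SEL1L, a scaffold of degradation from the reticulum, had 20344 and 4611 (-1.27 and -2.28).

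**Figure D3:**
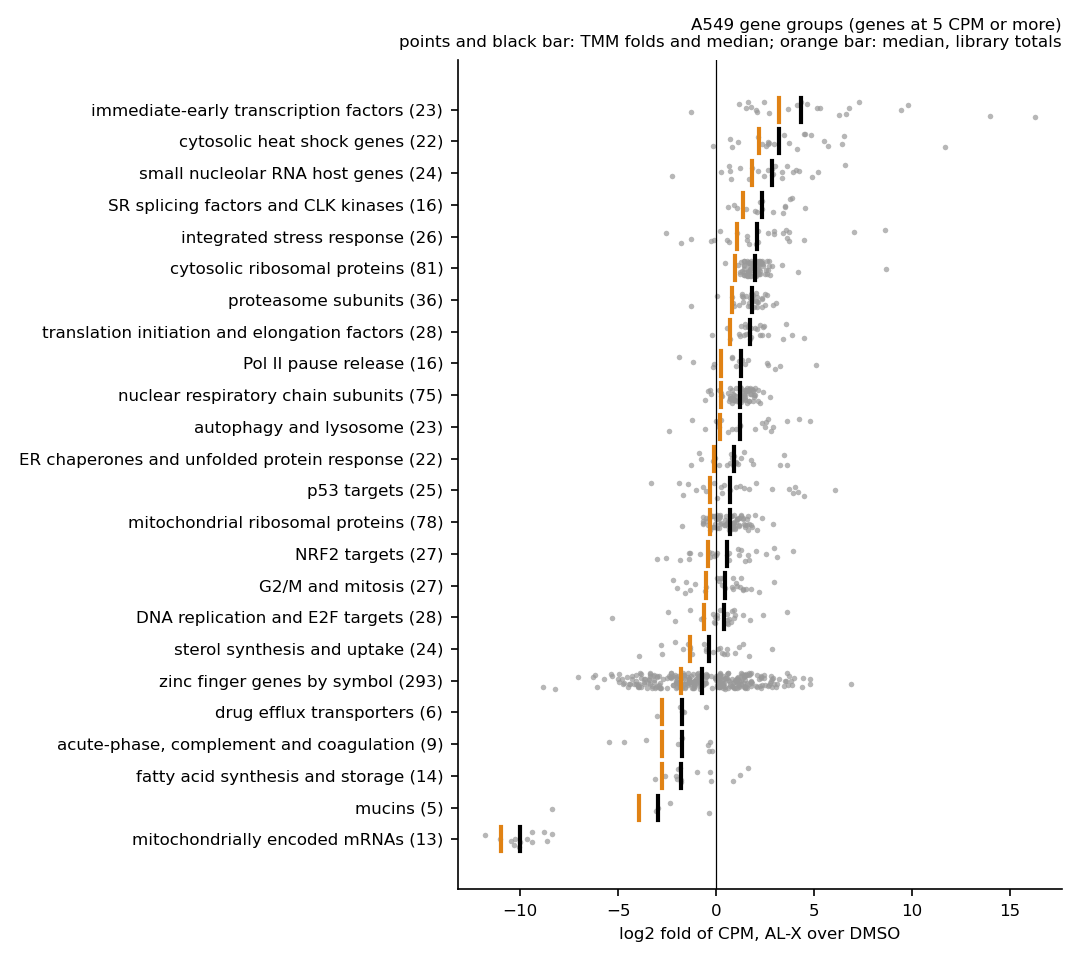
Log2 folds of CPM, AL-X over DMSO, for members of 24 gene groups in A549 with at least 5 CPM, with the number of members in brackets. Grey points and black bars are TMM folds and their median, orange bars the median with library totals, which lay lower in each group shown.

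NRF2 targets, already active in this KEAP1-mutant line, lay on either side. Of 27, 11 were at least 2-fold higher and 6 lower under TMM (0.56), and with totals 5 were higher and 11 lower (-0.44), so the sign of the median turned with the scaling. Among all genes, 30.1% were higher and 31.6% lower under TMM, and 12.7% and 52.0% with totals. HMOX1, the heme-degrading enzyme, had 26865 and 225603 counts (3.94 and 2.93), SRXN1, which repairs peroxiredoxins, 37694 and 176027 (3.09 and 2.09), and NQO1, a quinone reductase, 160756 and 245583 (1.48 and 0.47). At the low end were the export pump ABCC2, at 103243 and 6882 (-3.04 and -4.04), SLC7A11, described above, and ABCC3, at 94787 and 14348 (-1.86 and -2.86). Together the list took 3.49% of counts with DMSO and 3.30% with AL-X. All 4 metallothionein and zinc export genes at 5 CPM were higher under TMM (2.96) and 3 of 4 with totals (1.96), with MT1X, a zinc-binding metallothionein, at 616 and 11311 counts (5.06 and 4.06).

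Genes of growth arrest and cell death had no common direction. CDKN1A, the CDK inhibitor p21 and a target of p53, had 6201 and 223736 counts (6.04 and 5.03). The p53 targets were on either side: of 25, CDKN1A among them, 11 were higher and 5 lower (0.69), and with totals 8 and 8 (-0.32). Among all genes, 30.1% were higher and 31.6% lower under TMM, and 12.7% and 52.0% with totals. PMAIP1, the BH3-only protein NOXA, had 1276 and 12595 (4.17 and 3.16), TP53INP1 2183 and 116 (-3.35 and -4.35) and XPC, a DNA damage sensor, 9299 and 1380 (-1.88 and -2.89). Of 13 BCL2 family genes, 4 were higher and 3 lower (0.05), and 2 and 6 with totals (-0.96), shares near those of all genes. MCL1, a short-lived survival protein, had 23818 and 301780 counts (4.53 and 3.53), BCL2 649 and 16 (-4.36 and -5.31), and BMF, a BH3-only protein, 1253 and 0, at least 229-fold lower under TMM and 460-fold with totals.

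In the death receptor list, 6 of 17 were higher and 6 lower under TMM (0.25), and 2 and 8 with totals (-0.76), against 30.1% and 31.6% of all genes under TMM and 12.7% and 52.0% with totals. TNFSF9, a co-stimulatory ligand, had 2571 and 57524 counts (5.35 and 4.34). CASP8 had 8170 and 803 (-2.48 and -3.48), FADD, its adaptor, 5048 and 438 (-2.66 and -3.66), and BIRC3 2388 and 174 (-2.90 and -3.90).

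Cell cycle genes had members at either end. CCNE1, cyclin E1, had 2242 and 61475 counts (5.64 and 4.64) and CDK6 had 10146 and 557 (-3.32 and -4.32). Of 28 DNA replication genes, 4 were higher and 4 lower under TMM (0.37) and 2 and 11 with totals (-0.63), which under TMM is a smaller part of the list than the 30.1% and 31.6% of all genes. They ran from ORC6 (3459 and 22814 counts, 3.59 and 2.58) to E2F2 (2132 and 28, -5.31 and -6.29). Of 27 mitotic genes, 10 were higher and 6 lower (0.46), and 2 and 8 with totals (-0.54). With totals, 12.7% of all genes were higher and 52.0% lower. UBE2C, which serves the anaphase-promoting complex, had 6819 and 28950 counts (2.95 and 1.95), MKI67, the Ki-67 antigen, 134185 and 34719 (-1.08 and -2.09) and CCNF 7711 and 910 (-2.21 and -3.22). The signs of both medians turned with the scaling.

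The lists of the translation apparatus had medians above that of all genes under each scaling. Cytosolic ribosomal protein genes took 2.74% of all counts with DMSO and 5.00% with AL-X. Of 81 at 5 CPM, 80 were at least 2-fold higher and 0 lower under TMM (1.99), and with totals 36 of 80 were higher and 0 lower (0.97). RPS28 had 1055 and 10602 counts (4.19 and 3.19) and RPS9 28341 and 157197 (3.34 and 2.33). RPL3L, a muscle paralog of RPL3, had 0 and 581 counts, at least 353-fold higher under TMM and 176-fold with totals, and RPL39L was the lowest (0.44 and -0.56). Of 28 initiation and elongation factors, 25 were higher and 0 lower (1.73), and with totals 11 and 1 (0.72). EIF4A2, an RNA helicase of initiation, had 18570 and 227563 counts (4.48 and 3.48) and EIF1 18435 and 146571 (3.86 and 2.85). EIF2S3, a subunit of the initiation factor eIF2, was the lowest (-0.22 and -1.22).

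Splicing factors and small nucleolar RNA hosts were mostly higher. Of 16 SR splicing factors and CLK kinases, which phosphorylate them, 14 were at least 2-fold higher and 0 lower (2.34), and 11 and 0 with totals (1.34). SRSF7 had 13680 and 173962 counts (4.54 and 3.53), TRA2B 18201 and 147470 (3.89 and 2.88), CLK1 6076 and 44712 (3.75 and 2.74), and SRSF1 was the lowest (0.62 and -0.38). Of 24 host genes of small nucleolar RNAs, 19 were higher and 1 lower (2.83), and with totals 15 of 22 and 1 (1.83). SNHG12 had 1104 and 57243 counts (6.56 and 5.56), SNHG1 8083 and 131991 (4.90 and 3.89) and SNHG14 14042 and 1610 (-2.26 and -3.26).

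Among 16 genes that govern release of paused RNA polymerase II, 10 were higher and 2 lower (1.24), and 5 and 4 with totals (0.24). For all genes the shares were 30.1% higher and 31.6% lower under TMM, and 12.7% and 52.0% with totals. BRD2, a bromodomain reader of acetylated histones, had 31706 and 581969 counts (5.07 and 4.06) and HEXIM1, which holds the kinase P-TEFb inactive, 26807 and 142381 (3.28 and 2.27). BRD3 had 8329 and 1212 counts (-1.91 and -2.92) and CDK12 18669 and 4543 (-1.17 and -2.18).

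Transcripts of the mitochondrial genome were nearly absent with AL-X. They took 6.87% of all counts with DMSO and 0.0201% with AL-X. All 13 mitochondrial messenger RNAs were lower, with a median log2 fold of -10 under TMM and -11.0 with totals. MT-CO3, a subunit of cytochrome c oxidase, had 576910 and 88 counts (-11.79 and -12.78), MT-CO1 2338524 and 607 (-11.04 and -12.04) and MT-CYB, of complex III, 274862 and 106 (-10.45 and -11.45). MT-ND6, the one messenger RNA read from the light strand, had 33207 and 53 (-8.39 and -9.37) and lay at the upper end, near MT-ND5 (406348 and 551, -8.66 and -9.66) and MT-ND4 (792802 and 962, -8.82 and -9.82).

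The remaining 7 messenger RNAs lay between these ends. Subunits of complex I were MT-ND1 (-9.64 and -10.64), MT-ND2 (-9.40 and -10.40), MT-ND3 (-10.32 and -11.22) and MT-ND4L (-10 and -11.0). MT-CO2, of cytochrome c oxidase, was at -10.04 and -11.04, and the ATP synthase subunits MT-ATP6 and MT-ATP8 at -10.27 and -11.27 and at -9.40 and -10.39. The ribosomal RNAs, which lie nearest the heavy-strand promoter, differed by less: MT-RNR1 had 82627 and 3272 counts (-3.79 and -4.80) and MT-RNR2 1307249 and 17715 (-5.34 and -6.34). Nuclear copies of mitochondrial genes on chromosome 1, whose reads cannot be told apart from their sources, were the lowest non-coding genes of the nuclear genome: MTCO1P12 (-10.40 and -11.35), MTATP6P1 (-10.39 and -11.37) and MTND2P28 (-9.91 and -10.88).

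Nuclear genes for mitochondria did not follow the mitochondrial genome. Of 75 respiratory chain subunits encoded in the nucleus, 49 were at least 2-fold higher and 0 lower (1.23), and with totals 5 were higher and 4 lower (0.22). COX5A had 4787 and 17725 counts (2.76 and 1.75) and NDUFV3 2582 and 951 (-0.57 and -1.58). Of 78 mitochondrial ribosomal proteins, 26 were higher and 1 lower (0.71), and 3 and 19 with totals (-0.30). Genes of mitochondrial transcription and RNA ranged from POLG2, the accessory subunit of the mitochondrial DNA polymerase, at 1972 and 13414 counts (3.63 and 2.63), to PPARGC1A, a coactivator of mitochondrial gene programmes, at 3212 and 12 (-7.04 and -7.97). TFB1M, a ribosomal RNA methyltransferase of mitochondria, had 634 and 25 (-3.72 and -4.69). Of these 21 genes, 9 were higher and 4 lower (0.56), and 7 and 8 with totals (-0.44). Over all genes 30.1% were higher and 31.6% lower under TMM, and 12.7% and 52.0% with totals. Each list in this paragraph had a smaller part lower than all genes had, under either scaling.

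The lowest nuclear protein-coding genes went from 10 to over 100 TMM-scaled CPM to almost none. TJP3, a scaffold of tight junctions, had 3225 counts with DMSO and 0 with AL-X, at least 589-fold lower under TMM and 1183-fold with totals. EDARADD, a death-domain adaptor of the ectodysplasin receptor, had 2112 and 0 (at least 386-fold and 775-fold lower), and NREP 1942 and 0 (at least 355-fold and 712-fold). RAB4B-EGLN2, a readthrough transcript, had 1867 and 0 (at least 341-fold and 685-fold), TTC30B 1549 and 0 (at least 283-fold and 568-fold) and SSPOP 1414 and 0 (at least 258-fold and 519-fold). BMF, given above, also belonged to this set.

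The other 8 of the 15 kept a few counts. GPRIN3 had 13086 and 14 (-8.86 and -9.81), TCIM 4457 and 4 (-8.82 and -9.65), and BDKRB2, the bradykinin B2 receptor, 8890 and 11 (-8.62 and -9.54). TTC30A, which like TTC30B encodes a subunit of intraflagellar transport, had 1883 and 3 counts (-7.87, interval -10.71 to -6.88, totals -8.67). RASSF10 had 2635 and 6 (-7.61 and -8.49), PDE7B, a cyclic AMP phosphodiesterase, 4097 and 12 (-7.39 and -8.32), TPPP 1340 and 4 (-7.09 and -7.92) and ZNF658 1306 and 4 (-7.05 and -7.88). Among non-coding genes GAS6-AS1 had 1929 and 0 counts, at least 353-fold lower under TMM and 708-fold with totals, and LINC00342 had 3365 and 12 (-7.10 and -8.04).

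Genes of fatty acid synthesis were mostly lower. Of 14 fatty acid synthesis and storage genes, 2 passed 2-fold upward and 9 downward under TMM (-1.79), and 0 and 11 with totals (-2.79), against 31.6% and 52.0% of all genes lower. SCD, the desaturase that makes oleate, had 571726 and 35882 counts (-3.13 and -4.13), PDK4, which restrains pyruvate oxidation, 21526 and 1907 (-2.63 and -3.63) and ELOVL6, a fatty acid elongase, 12955 and 1692 (-2.07 and -3.07). Sterol genes were on either side, with 4 of 24 higher and 9 lower (-0.35), and 1 and 13 with totals (-1.35). IDI1, of the isoprenoid pathway, had 9342 and 37323 (2.87 and 1.86), and LSS, which forms lanosterol, 14340 and 1124 (-2.80 and -3.81).

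Mucin, acute-phase and efflux genes were mostly lower under TMM and lower throughout with totals. Among all genes, 30.1% were higher and 31.6% lower under TMM, and 12.7% and 52.0% with totals. Of 5 mucins at 5 CPM, 0 were higher and 4 lower (-2.95), and 0 and 5 with totals (-3.96). The gel-forming mucins MUC5B, at 240580 and 17060 counts (-2.95 and -3.96), and MUC5AC, at 25240 and 1654 (-3.06 and -4.07), had similar folds, and MUC16 had 871 and 0, at least 159-fold lower under TMM and 320-fold with totals. Of 9 acute-phase, complement and coagulation genes, 0 were higher and 5 lower (-1.75), and 0 and 9 with totals (-2.76). The 3 fibrinogen chain genes FGA (3912 and 80, -4.72 and -5.71), FGB (1708 and 76, -3.60 and -4.59) and FGG (756 and 8, -5.46 and -6.37) were its lowest members. Of 6 drug efflux transporters, 0 were higher and 5 lower (-1.74), and 0 and 6 with totals (-2.75), from ABCG2 (-0.51 and -1.51) down to ABCC2, given above.

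Several adhesion and matrix genes were lower. CDH1, E-cadherin, had 25431 and 1054 counts (-3.72 and -4.73), FN1, fibronectin, 419522 and 27062 (-3.09 and -4.09) and ITGA2, a collagen-binding integrin, 9339 and 269 (-4.24 and -5.24). LAMA3 had 19643 and 1087 (-3.31 and -4.31). SNAI1, a repressor of CDH1, had 581 and 164836 counts (9.01 and 8.01), while ZEB2, another such repressor, had 1528 and 221 (-1.92 and -2.92) and VIM, vimentin, 97555 and 147049 (1.46 and 0.45). Of 19 matrix and integrin genes, 2 were higher and 6 lower (-0.71), and 1 and 13 with totals (-1.72). The share lower under TMM equals the 31.6% of all genes. The keratins KRT8 (-0.12 and -1.13) and KRT18 (0.04 and -0.96) of simple epithelia were level under TMM.

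Among 16 actin cytoskeleton genes, 9 were higher and 1 lower (1.04), and 4 and 4 with totals (0.03). In the whole gene set 30.1% were higher and 31.6% lower under TMM, and 12.7% and 52.0% with totals. Of 10 tubulins, 7 were higher and 0 lower (1.32), and 4 and 1 with totals (0.31), with TUBB4B at 51314 and 614619 counts (4.45 and 3.44) and TUBB at 119955 and 47405 (-0.47 and -1.48). Targets of YAP included CCN2, a matricellular protein, at 649 and 80251 (7.81 and 6.81), and AMOTL1, which binds YAP, at 6049 and 141 (-4.54 and -5.54). Among TGF-beta and BMP genes, ID2, an inhibitor of differentiation factors, had 5034 and 332211 (6.91 and 5.91), and SMAD6, an inhibitor of BMP signals, 10980 and 158 (-5.24 and -6.24).

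Of 13 NF-kB targets, chemokines and cytokines, 5 were higher and 4 lower (0.27), and with totals 3 of 14 and 5 (-0.75), shares near those of all genes under TMM. CSF3, which encodes the growth factor G-CSF, had 0 counts with DMSO and 643 with AL-X, at least 391-fold higher under TMM and 195-fold with totals. NFKBIZ had 1233 and 23556 (5.12 and 4.12), CXCL1, a neutrophil chemokine, 3026 and 235 (-2.81 and -3.81) and CXCL2 744 and 42 (-3.24 and -4.22). Of 9 interferon-stimulated genes, 1 was higher and 5 lower (-1.02), and 1 and 8 with totals (-2.03). Among all genes, 30.1% were higher and 31.6% lower under TMM, and 12.7% and 52.0% with totals. IRF7 was the higher one, at 459 and 12496 (5.63 and 4.62), and IFIT3 the lowest, at 834 and 92 (-2.30 and -3.29). ADM, adrenomedullin, a hypoxia-responsive peptide gene, had 2352 and 170786 (7.05 and 6.04), SGK1, a glucocorticoid-responsive kinase, 1117 and 96870 (7.30 and 6.30), and CYP24A1, the vitamin D hydroxylase, 1012 and 11.3 TMM-scaled CPM (-6.49 and -7.49).

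The fold went with the size of the gene. Of 779 protein-coding genes with under 2 kb of merged exons, 56.7% were at least 2-fold higher and 10.3% lower under TMM (median 1.21, totals 0.17), while of 2575 genes with over 8 kb, 13.4% were higher and 50.3% lower (-1.02, totals -2.03). Among 772 genes spanning over 200 kb of the genome, 6.0% were higher and 65.0% lower (-1.60, totals -2.62), and among 1938 spanning under 10 kb, 45.5% were higher and 18.1% lower (0.81, totals -0.26). Across the 10969 nuclear protein-coding genes, Spearman's rho of the log2 fold was -0.348 with merged exon length and -0.315 with genomic span. The genes share the same 2 libraries and are not replicates, so no p is given. Size moved together with several groups above, since ribosomal protein genes are short and matrix genes long, and its part in those values was not tested.

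**Figure D4:**
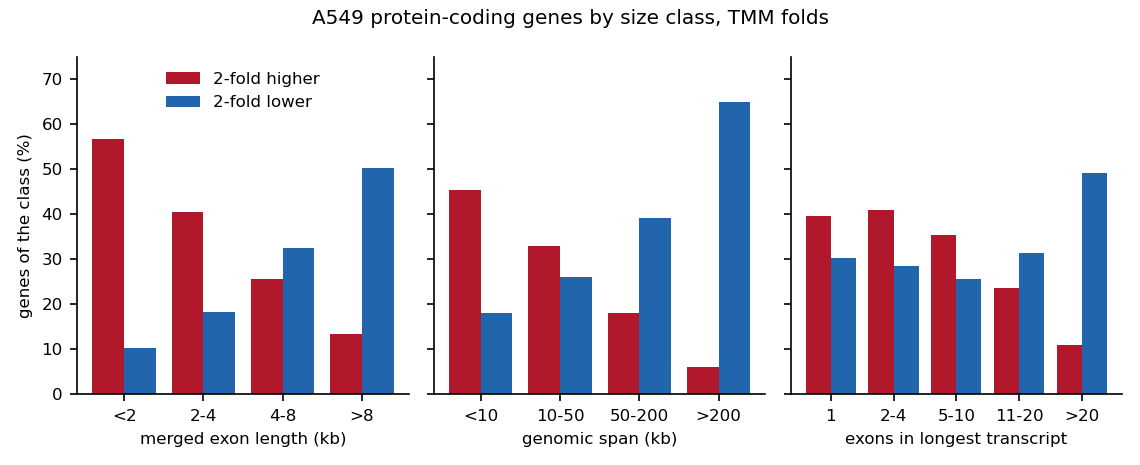
Percentage of nuclear protein-coding genes in A549 at least 2-fold higher (red) or lower (blue) with AL-X under TMM, by merged exon length, genomic span and number of exons. The red share runs from 56.7% under 2 kb of exons to 13.4% over 8 kb, and the blue share from 10.3% to 50.3%.

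The same classes were flatter in the other lines. From the shortest to the longest exon class, the median log2 fold under TMM went from 0.00 to -0.11 in HCC827 and from 0.76 to -0.41 in H1975. In A549, 80.9% of 246 processed pseudogenes were at least 2-fold higher under TMM (median 1.73, totals 0.71), many of them copies of abundant genes whose reads they can share. Long intergenic RNAs were more often lower (46.2% of 173) than higher (30.6%). By chromosome, the share of protein-coding genes at least 2-fold higher lay between 23% on chromosome 18 and 35.3% on chromosome 19. Zinc finger genes, many of which lie on chromosome 19, ran the other way: of 293, 82 were higher and 128 lower (-0.72), and 37 of 290 and 171 with totals (-1.81), from ZNF296 (304 and 19574 counts, 6.86 and 5.86) to ZNF608 (1203 and 0 counts, at least 220-fold lower under TMM and 441-fold with totals). Among all genes, 30.1% were higher and 31.6% lower under TMM, and 12.7% and 52.0% with totals.

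Reads were held by fewer genes with AL-X. In A549, 888 genes held 50% of all counts with DMSO and 412 with AL-X. The corresponding numbers were 1030 and 1249 in HCC827 and 1098 and 717 in H1975.

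Whether A549 responded differently from the mean of HCC827 and H1975 was tested with edgeR over 20344 genes, with an interaction term and 1 residual degree of freedom, so A549 was assumed to vary like the other lines. The A549 response was higher for 20 genes (0.0983% of those tested) and lower for 37 (0.182%) at an adjusted p under 0.05. By limma-voom it was higher for 37 and lower for 12, so the balance of the directions rests on the tool. HES1, a repressor downstream of Notch (chromosome 3, 194136145 to 194138732), had 653 and 24123 counts in A549 (6.07 and 5.06), 1028 and 413 in HCC827 and 1857 and 2558 in H1975. Its response exceeded the mean of the other lines by 6.22 log2 units (SE 1.00, edgeR adjusted p = 0.00154). BDKRB2, described above, had 263 and 238 counts in HCC827 and 1109 and 137 in H1975, and its A549 response differed by -7.48 (SE 1.48, edgeR adjusted p = 0.0165). With library totals edgeR called 0 genes, with 279 higher and 2303 lower at an unadjusted p under 0.05, and the smallest adjusted p was 0.0597.

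The most extreme A549 genes did not all pass that test. EGR1 had 5737 and 5037 counts in HCC827 and 4038 and 179935 in H1975, and its difference of 11.11 had an edgeR adjusted p of 0.0640. FOSB had 195 and 1583 in HCC827 and 37 and 12968 in H1975 (difference 10.78, SE 2.44, edgeR adjusted p = 0.0644). For these genes H1975 lay between the other lines. Group medians over the same genes, whose differences were not tested, were 3.20 for cytosolic heat shock genes in A549, against 0.13 in HCC827 and 1.91 in H1975. For ribosomal proteins they were 1.99, against -0.50 in HCC827 and 1.31 in H1975. Integrated stress response genes had closer medians, at 2.08 for A549, 1.66 for HCC827 and 1.40 for H1975.

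**Figure D5:**
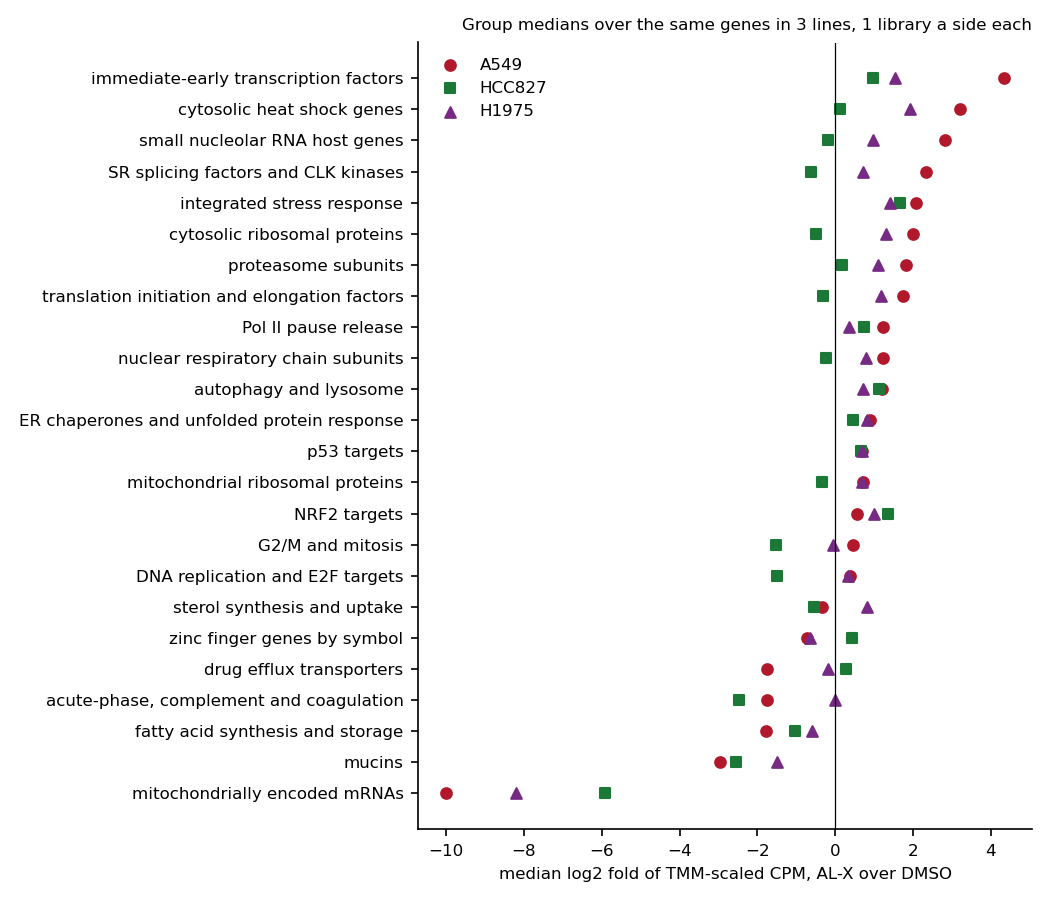
Median log2 fold of TMM-scaled CPM, AL-X over DMSO, of 24 gene groups in A549 (circles), HCC827 (squares) and H1975 (triangles), over the genes at 5 CPM in A549. Each median rests on 1 library a side. For immediate-early factors the circle lies at 4.34, the square at 0.96 and the triangle at 1.54.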

How the data were processed

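The table the authors deposited holds raw counts for each Ensembl gene in 6 libraries. The submitters' processing notes name bcl2fastq 2.20 and GRCh38. Not given in the sources used here were the aligner, counter, annotation, strand setting and barcode handling, so overlapping, antisense and near-identical genes cannot be told apart. Positions, lengths and gene types, by which SSPOP counts as protein-coding, are from GENCODE release 29. Symbols are from a separate list. Folds use a prior count of 2, TMM factors over 6 libraries (edgeR 4.0.16, R 4.3.3) or library totals. The minimum was 5 CPM in whichever library was higher. Lower bounds use a floor of 3 counts per library. Intervals are exact binomial. The difference test was edgeR's quasi-likelihood interaction with Benjamini-Hochberg adjustment. In simulated counts over 20344 genes it recovered 2.99%, 41.8% and 97.0% of differences of 2, 4 and 8 log2 units and made 11 false calls. DESeq2 1.42.0, limma 3.58.1 (voom), other filters and prior counts were alternatives.

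The members and the 54 gene lists were chosen with earlier results of these data known. Named genes were the 15 highest and lowest nuclear protein-coding and the 5 highest and lowest non-coding genes at 10 CPM, the 5 with most counts per library, up to 3 members at either end of each list, up to 8 genes either way in the difference test and fixed line checks. EGR2, ATF3, JUN, MYC, ATF4, HSP90AA1, HSF1, HBB, NQO1 and MKI67, and the markers given at 0 counts, were chosen after their values were seen. Some genes that this rule names are not reported here.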

Additional observations from a re-analysis of the deposited data

Results flagged for a closer look

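For the genes below, the response to AL-X differed between A549 and the mean of HCC827 and H1975 in edgeR's interaction test at an adjusted p under 0.05. The test compares responses and not levels. The A549 response was higher for B3GNT6 (log2 difference 11.81, edgeR adjusted p = 0.00352), NDUFC2-KCTD14 (8.10, 0.00564), HES1 (6.22, 0.00154), HCP5 (5.91, 0.0430), TOMM6 (5.71, 0.00688), CITED2 (5.54, 0.0430), SNHG12 (5.51, 0.0239) and FOSL1 (5.46, 0.0429). CITED2, a transcriptional coregulator, had 2007 and 117580 counts in A549 with DMSO and AL-X, 8083 and 11577 in HCC827 and 9186 and 23238 in H1975. FOSL1 had 1440 and 78944 counts in A549 and was already well counted in the other lines with DMSO, at 10998 in HCC827 and 28212 in H1975. TOMM6, of the mitochondrial import pore, had 60 and 5121 counts in A549.

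For B3GNT6 and HCP5 the A549 counts were few. B3GNT6 had 0 and 29 counts in A549, with 9422 and 1380 in HCC827, and HCP5 had 23 and 42 in A549, with 4340 and 188 in HCC827. Both thus had fewer counts in A549 than in HCC827 under each treatment, and both had fewer with AL-X than with DMSO in HCC827.

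The A549 response was lower for AGAP5 (-12.44, 0.0430), TJP3 (-12.17, 0.00367), GPRASP3 (-12.08, 0.0202), CDK18 (-11.43, 0.00243), NREP (-10.96, 0.0430), GAS6-AS1 (-10.73, 0.0253), STING1 (-10.44, 0.00547) and MUC16 (-10.35, 0.0423). All 8 had 0 counts in A549 with AL-X, so these fitted differences depend on the prior count and are no bounds. STING1, the adaptor of cytosolic DNA sensing, had 375 and 0 counts in A549, 8749 and 2964 in HCC827 and 10194 and 5055 in H1975. CDK18 had 608 and 0 in A549, 6296 and 3161 in HCC827 and 5735 and 2892 in H1975.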

How the results depend on the processing

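Library totals as the only scaling gave 1505 genes higher and 6151 lower in A549, against 3597 and 3779, and a minimum of 20 CPM gave 2183 lower. A further 7 alternatives for these counts stayed within 1.5 times, among them nuclear protein-coding genes alone (3146 and 3449), added after seeing the data. The difference test called 57 genes (20 higher and 37 lower). The separate counts were 0 with totals, 24 with DESeq2 size factors, 0 without a filter (451 higher and 1247 lower at an unadjusted edgeR p under 0.05), 411 with the DESeq2 Wald test and 49 with limma-voom, whose 37 higher and 12 lower turned the balance. Of the 16 named, 8 passed with DESeq2 size factors, 16 with the Wald test, 5 with limma-voom and 0 with totals or no filter. The cause was not tested. Within A549 no paired analysis was possible because each group is 1 library. The difference test did hold a term for cell line, so AL-X and DMSO were compared within each line. Leaving out HCC827 or H1975 left no residual degree of freedom, so only each line's values are given. Members at 0 counts, set at their bounds, moved the median of the early-embryo list from 10.93 to 10.71 and of mitochondrial transfer RNA genes from -10.06 to -9.18.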
